A study of Homo sapiens with 6 samples.

Results

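Notch receptors, ligands and target genes were followed in SH-SY5Y cells, a human neuroblastoma line, after depletion of CSA or CSB. The set holds 10 genes chosen by name: the receptors NOTCH1, NOTCH2 and NOTCH3, the ligands JAG1, JAG2, DLL1 and DLL3, and the transcription factors HES1, HES6 and HEY1. All 10 were found among the 32575 genes listed in the deposited tables, and all 10 had enough reads to be tested. CSA, the product of ERCC8, belongs to a ubiquitin ligase, and CSB, the product of ERCC6, is a chromatin remodeller; both act in transcription-coupled repair. There were 3 groups of 2 libraries each: cells with lentiviral short hairpins against CSB, cells with hairpins against CSA, and cells with a control hairpin. All 3 groups were transduced, selected with puromycin and kept in culture for 2 to 3 weeks. The labels call the depleted groups CSBmut and CSAmut and the control group WT, although the protocol describes hairpins, so knockdown and control are used here. The sources used here give neither the hairpin sequences nor whether replicates were transduced separately, so the p-values measure only the spread between these libraries, which may be technical.

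Notch receptors are membrane proteins that are activated by ligands of the Jagged and Delta-like families on neighbouring cells. Ligand binding lets ADAM proteases and then the gamma-secretase complex cut the receptor, and the freed intracellular part joins the DNA-binding protein RBPJ and Mastermind coactivators to switch on genes such as HES1 and HEY1, whose products are repressors. In the developing nervous system this pathway keeps progenitors from becoming neurons, and in neuroblastoma cell lines NOTCH3 is known as a driver of a mesenchymal-type state.

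The libraries held between 19368272 and 26758162 reads assigned to genes, and mitochondrial transcripts made up 5.73 to 6.51% of the scaled counts. A scaled count is the deposited value, a gene's reads divided by 1 size factor per library. It is not divided by gene length, so it compares libraries within a gene. ERCC6, which encodes CSB, had scaled counts of 258 and 302 in the CSB knockdown and 618 and 611 in the CSA knockdown, against 615 and 593 in controls. It was lower in the CSB knockdown than in controls, with a log2 fold change of -1.11 ± 0.08 (SE) and an adjusted p of 2.1e-06. ERCC8, which encodes CSA, had scaled counts of 186 and 215 in the CSB knockdown and 61.8 and 57.2 in the CSA knockdown, against 219 and 217 in controls. It was lower in the CSA knockdown than in controls, with a log2 fold change of -1.86 ± 0.13 (SE) and an adjusted p of 8.8e-07. Adjusted p-values come, unless another tool is named, from limma, fitted to log2(scaled count + 1) of all 6 libraries, with Benjamini-Hochberg adjustment over the 28388 genes tested. A gene is said to have risen or fallen where its adjusted p was below 0.05, and a log2 fold change is a difference on that scale, knockdown minus its comparison group. The labels give neuroblastoma cells; all 10 markers of noradrenergic neuroblasts had reads in every library, TH, which encodes the first enzyme of catecholamine synthesis, at only 2.86 to 20.3. SOX10 (Schwann cells), PECAM1 (endothelium) and CD3E and CD68 (immune cells) were at 0 in every library.

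The receptors fell together in the CSA knockdown and rose together in the CSB knockdown. Across the 10 genes, 7 fell and 0 rose in the CSA knockdown, where 10.4% of all tested genes fell and 8.37% rose. In the CSB knockdown 6 of the 10 rose and 0 fell, where 14.8% of all tested genes rose and 8.86% fell. At an unadjusted p below 0.05 in limma, 2 of the 10 were higher in the CSA knockdown and 0 lower in the CSB knockdown; 1 was called higher in the CSA knockdown by edgeR and 0 by DESeq2, and neither tool called any lower in the CSB knockdown. The median log2 fold change of the 10 was -0.37 in the CSA knockdown and 0.37 in the CSB knockdown, against 0.00 and 0.10 over all tested genes. Because well-expressed genes pass the test more often, the 12083 genes whose scaled counts average 100 or more, among them 9 of the 10, give a closer background. Of these, 20.7% fell and 16.8% rose in the CSA knockdown, and 28.8% rose and 18.4% fell in the CSB knockdown. Both comparisons use the same control libraries. The split of all genes by direction in the CSB knockdown depended on the scaling, with 4191 higher and 2515 lower as deposited and 3012 higher and 3299 lower with TMM scaling. Under every scaling tried the 3 receptors kept these directions and stayed past the threshold in both comparisons. The data are from bulk RNA, in which fewer cells with a transcript and less of it per cell cannot be told apart.

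**Figure D1:**
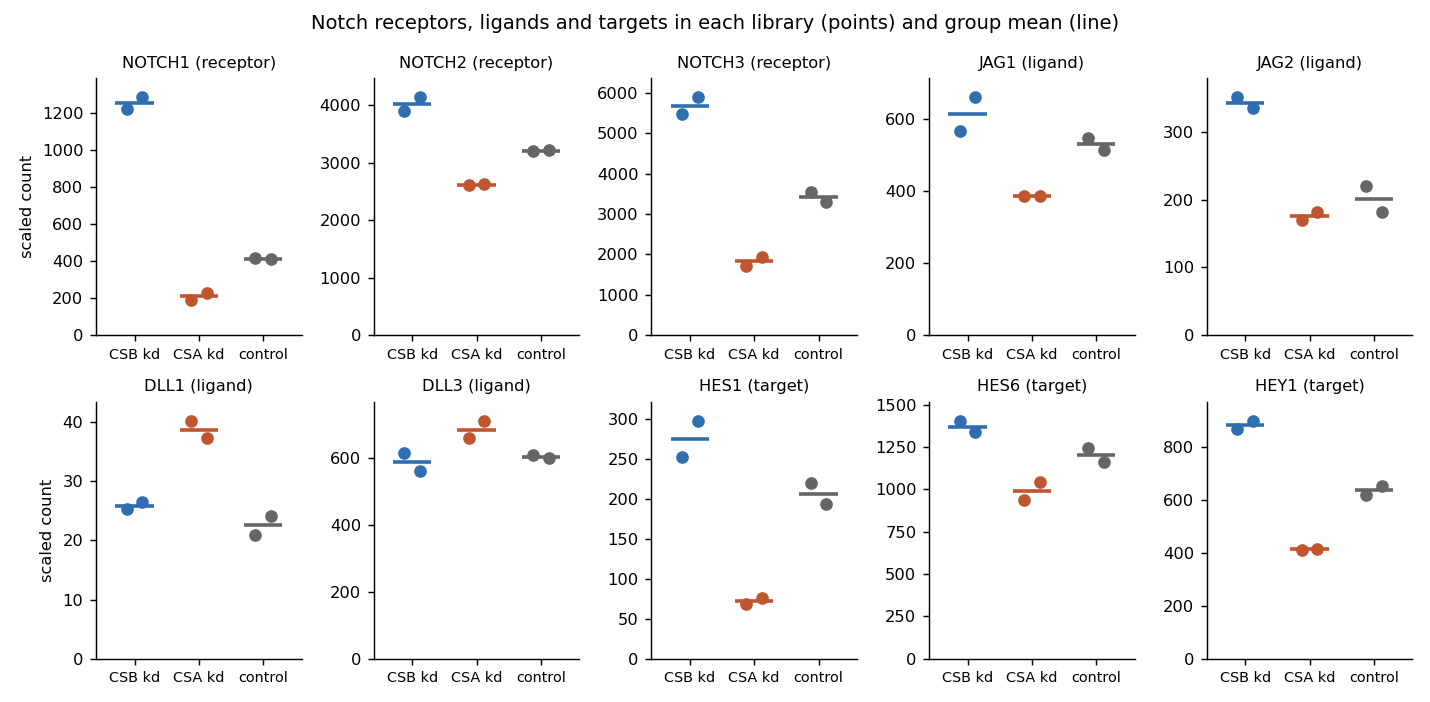
Scaled count (y axis, from 0) of each of the 10 genes in each library (points) with the mean of its group (line), for the CSB knockdown (CSB kd), the CSA knockdown (CSA kd) and control. For all 3 receptors and all 3 targets the 2 CSB knockdown libraries lie highest and the 2 CSA knockdown libraries lowest, while DLL1 and DLL3 are highest in the CSA knockdown.

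Of the receptors, NOTCH1, a receptor with a broad role in progenitor maintenance, changed most. It lies on chromosome 9 (hg38, 136494444 to 136545862, minus strand). NOTCH1 had scaled counts of 1225 and 1285 in the CSB knockdown and 192 and 227 in the CSA knockdown, against 415 and 412 in controls. The 3 groups did not overlap, and the control libraries lay between the knockdowns. The mean was 1255 ± 42.4 in the CSB knockdown, 209 ± 24.8 in the CSA knockdown and 413 ± 2.04 in controls (SD, n = 2 each), so the CSB knockdown held 3.04 times and the CSA knockdown 0.507 times the control mean. NOTCH1 rose in the CSB knockdown by a log2 fold change of 1.60 ± 0.09 (SE; adjusted p = 1.5e-07) and fell in the CSA knockdown with a log2 fold change of -0.98 ± 0.09 (adjusted p = 6.9e-06). These 2 calls stood under all 18 alternative settings, with adjusted p of at most 0.0298 and 0.0393.

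The sequence just upstream of NOTCH1 is shown because this receptor had the widest change of the set, together with that of HES1, the target that fell furthest in the CSA knockdown. Both are the 250 bases upstream of the RefSeq gene start (GRCh38.p14), 5′ to 3′ on the gene's own strand, and capitals mark TGGGAA, the core that RBPJ binds. The NOTCH1 window is chr9:136546049-136546298 on the minus strand, and the HES1 window is chr3:194135898-194136147 on the plus strand.
NOTCH1: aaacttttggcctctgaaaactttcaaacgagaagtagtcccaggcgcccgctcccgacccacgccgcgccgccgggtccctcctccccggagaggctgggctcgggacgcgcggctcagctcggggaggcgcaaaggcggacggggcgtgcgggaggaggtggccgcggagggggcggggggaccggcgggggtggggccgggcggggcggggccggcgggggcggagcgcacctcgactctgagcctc
HES1: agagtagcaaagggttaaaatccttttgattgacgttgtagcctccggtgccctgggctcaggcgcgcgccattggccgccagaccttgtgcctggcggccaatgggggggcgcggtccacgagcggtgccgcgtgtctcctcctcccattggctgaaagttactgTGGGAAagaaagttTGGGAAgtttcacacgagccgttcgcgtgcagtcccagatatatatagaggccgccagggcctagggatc
The HES1 window holds TGGGAA at -84 and -70 from the start, and the NOTCH1 window holds none on either strand. At -85 the HES1 copy extends to GTGGGAA, which overlaps the core at -84. Over 35116 such windows, TGGGAA on either strand occurred in 20.8% and at 2 or more places in 2.9%, and GTGGGAA occurred in 5.43%. CACNAG, the N-box that HES repressors bind, occurred 3 times in the HES1 window and once in that of NOTCH3. At least 1 copy occurred in 32% of all windows, and 2 or more in 6.32%. The windows of NOTCH2, JAG1, JAG2 and HES6 held none of the 3 motifs, which says only that these letters are not in 250 bases. The HES6 window, 238240039 to 238240288, lies wholly inside the deposited span of HES6, so it is not upstream of the gene as deposited. The windows of JAG1, JAG2 and HES1 reach partly into the deposited spans of these genes. The windows of 7 of the 10 genes were read, and DLL1, DLL3 and HEY1 were not among them.

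NOTCH3, the receptor with the highest level per length, lies on chromosome 19 (15159038 to 15200981, minus strand). It had scaled counts of 5464 and 5884 in the CSB knockdown and 1722 and 1944 in the CSA knockdown, against 3537 and 3295 in controls. The groups did not overlap, again with the controls in between. NOTCH3 averaged 5674 ± 297 in the CSB knockdown, 1833 ± 156 in the CSA knockdown and 3416 ± 171 in controls (SD, n = 2 each). It rose in the CSB knockdown by a log2 fold change of 0.73 ± 0.07 (SE; adjusted p = 8.4e-06), or 1.66 times the control mean, and fell in the CSA knockdown with a log2 fold change of -0.90 ± 0.07 (adjusted p = 1.8e-06), to 0.537 times the control mean. Without CSB knockdown replicate 2 the rise was 0.68, with an adjusted p of 0.0583. That was the largest over the 18 alternatives, of which the smallest was 1.17e-19.

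NOTCH2, the third receptor of the set, moved least of the 3. It lies on chromosome 1 (119911553 to 120069626, minus strand). Its scaled counts were 3894 and 4133 in the CSB knockdown and 2614 and 2621 in the CSA knockdown, against 3204 and 3211 in controls, again with no overlap. The log2 fold change was 0.32 ± 0.05 (SE) in the CSB knockdown (adjusted p = 4.8e-04) and -0.29 ± 0.05 in the CSA knockdown (adjusted p = 0.0012). Leaving out control replicate 1 or 2 gave adjusted p of 0.0572 and 0.0549 for the CSB knockdown, where the range over the 18 alternatives was 2.91e-05 to 0.0572. Leaving out control replicate 1, control replicate 2 or CSA knockdown replicate 2 gave 0.0824, 0.0798 and 0.0553 for the CSA knockdown, in a range of 1.31e-05 to 0.0824. Near-identical copies of part of NOTCH2 exist in the genome; NOTCH2NL and NOTCH2P1 were listed with at most 1 read in any library, and whether their reads were counted under NOTCH2 is not known.

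Fewer of the ligands passed the test. In the CSA knockdown 1 of the 4, JAG1, fell and 0 rose, and in the CSB knockdown 1 of the 4, JAG2, rose and 0 fell in limma, close to the 20.7% that fell and the 28.8% that rose among well-expressed genes; at an unadjusted p below 0.05, 2 were higher in the CSA knockdown (1 called by edgeR, 0 by DESeq2) and 0 lower in the CSB knockdown (0 by either tool). JAG1, an activating ligand on chromosome 20 (10637684 to 10674107, minus strand), had scaled counts of 567 and 659 in the CSB knockdown and 385 and 386 in the CSA knockdown, against 546 and 513 in controls. It fell in the CSA knockdown with a log2 fold change of -0.46 ± 0.08 (SE; adjusted p = 0.00188). In the CSB knockdown its log2 fold change of 0.21 (95% interval 0.03 to 0.39) did not pass after adjustment (adjusted p = 0.0965), although both libraries lay above both controls. The JAG1 call in the CSA knockdown was lost without control replicate 1 (adjusted p = 0.133), control replicate 2 (0.0889), CSA knockdown replicate 1 (0.0784) or CSA knockdown replicate 2 (0.114), in a range of 8.69e-06 to 0.133. In GENCODE v29, JAG1 shares 79 exon bases with the antisense gene AL050403.2, not analysed here.

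JAG2, the other Jagged ligand, lies on chromosome 14 (105140981 to 105168824, minus strand). It had scaled counts of 351 and 335 in the CSB knockdown and 170.2 and 181 in the CSA knockdown, against 221 and 182 in controls. The CSB knockdown libraries stood well above the other 4, and the higher CSA knockdown library lay just below the lower control. JAG2 rose in the CSB knockdown by a log2 fold change of 0.77 ± 0.11 (SE; adjusted p = 2.6e-04), while in the CSA knockdown its log2 fold change was -0.19 (95% interval -0.43 to 0.05; adjusted p = 0.28). Without CSB knockdown replicate 1 or 2 the adjusted p of its rise was 0.0794 and 0.0807, in a range of 4.44e-08 to 0.0807. JAG2 shares 469 of its 6397 exon bases with AL512356.1 on the same strand, not analysed here, so its reads are uncertain to that extent.

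Both Delta-like ligands had their highest values in the CSA knockdown, but neither passed the test against control there. DLL3 is known from mouse as a ligand that does not activate Notch on neighbouring cells and dampens it in its own cell. It lies on chromosome 19 (39498895 to 39508481, plus strand) and had scaled counts of 617 and 563 in the CSB knockdown and 660.1 and 710.5 in the CSA knockdown, against 609 and 599 in controls. The CSB knockdown and control values overlapped. The log2 fold change of DLL3 was 0.18 in the CSA knockdown (95% interval 0.02 to 0.34; adjusted p = 0.11) and -0.04 in the CSB knockdown (95% interval -0.19 to 0.12; adjusted p = 0.781). DLL1, an activating ligand on chromosome 6 (170282206 to 170306565, minus strand), was the lowest of the 10, with scaled counts of 25.3 and 26.4 in the CSB knockdown and 40.1 and 37.2 in the CSA knockdown, against 20.9 and 24.1 in controls. Both CSA knockdown libraries lay above the other 4. Its log2 fold change was 0.76 in the CSA knockdown (95% interval 0.18 to 1.33; adjusted p = 0.0691) and 0.20 in the CSB knockdown (95% interval -0.38 to 0.77; adjusted p = 0.664). The 46 control reads and 76 CSA knockdown reads of DLL1 limit what could be detected, and edgeR's quasi-likelihood model of the recovered reads, scaled by TMM, gave an adjusted p of 0.034 for the CSA knockdown, in a range over the 18 alternatives of 0.034 to 0.247. The gene FAM120B overlaps the span of DLL1 on the opposite strand, with scaled counts of 1353 to 1471, but shares 0 exon bases with it in GENCODE v29.

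All 3 transcription factors fell in the CSA knockdown. HES1, a repressor and the best known direct Notch target, lies on chromosome 3 (194136145 to 194138732, plus strand). It had scaled counts of 253 and 298 in the CSB knockdown and 68.3 and 76.3 in the CSA knockdown, against 219.8 and 194 in controls. The CSA knockdown libraries lay far below the other 4. HES1 averaged 276 ± 31.5 in the CSB knockdown, 72.3 ± 5.66 in the CSA knockdown and 207 ± 18.3 in controls (SD, n = 2 each). It fell in the CSA knockdown with a log2 fold change of -1.50 ± 0.13 (SE; adjusted p = 5.6e-06), to 0.349 times the control mean, the furthest fall of the 10 genes. That call stood under all 18 alternatives, with adjusted p of at most 0.033.

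In the CSB knockdown the rise of HES1 was smaller and less firm, with a log2 fold change of 0.41 ± 0.13 (SE; adjusted p = 0.0353). It was no longer past the threshold with TMM scaling (0.33; adjusted p = 0.0873), upper quartile scaling (0.34; 0.0842), scaling to library totals (0.35; 0.0681) or DESeq2 (0.33; 0.199). The same held without any 1 of the 6 libraries: adjusted p was 0.121 and 0.284 without CSB knockdown replicates 1 and 2, 0.0867 and 0.119 without CSA knockdown replicates 1 and 2, and 0.14 and 0.277 without control replicates 1 and 2. Over all 18 alternatives it ran from 0.00801 to 0.284.

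HEY1, a related repressor and direct Notch target, lies on chromosome 8 (79764010 to 79767863, minus strand). HEY1 had scaled counts of 869.8 and 899 in the CSB knockdown and 413 and 417 in the CSA knockdown, against 622 and 652 in controls. The groups did not overlap, and the replicates of each lay close together. It rose in the CSB knockdown by a log2 fold change of 0.47 ± 0.07 (SE; adjusted p = 2.1e-04) and fell in the CSA knockdown with a log2 fold change of -0.62 ± 0.07 (adjusted p = 3.2e-05). Both calls stood under all 18 alternatives, with adjusted p of at most 0.0397 and 0.0275.

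HES6, which in mouse opposes HES1 and favours neuronal differentiation, belongs to the HES family without being a typical Notch-induced gene. It lies on chromosome 2 (238238267 to 238240662, minus strand). Its scaled counts were 1403 and 1338 in the CSB knockdown and 938 and 1041 in the CSA knockdown, against 1241 and 1159 in controls, with no overlap. HES6 fell in the CSA knockdown with a log2 fold change of -0.28 ± 0.07 (SE; adjusted p = 0.011). In the CSB knockdown its log2 fold change of 0.19 (95% interval 0.05 to 0.34) did not pass (adjusted p = 0.0583). The call in the CSA knockdown was lost without any 1 of the 6 libraries, with adjusted p of 0.115 and 0.141 without CSB knockdown replicates 1 and 2, 0.122 and 0.0654 without CSA knockdown replicates 1 and 2, and 0.223 and 0.124 without control replicates 1 and 2. Its range over the 18 alternatives was 0.000738 to 0.223.

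**Figure D2:**
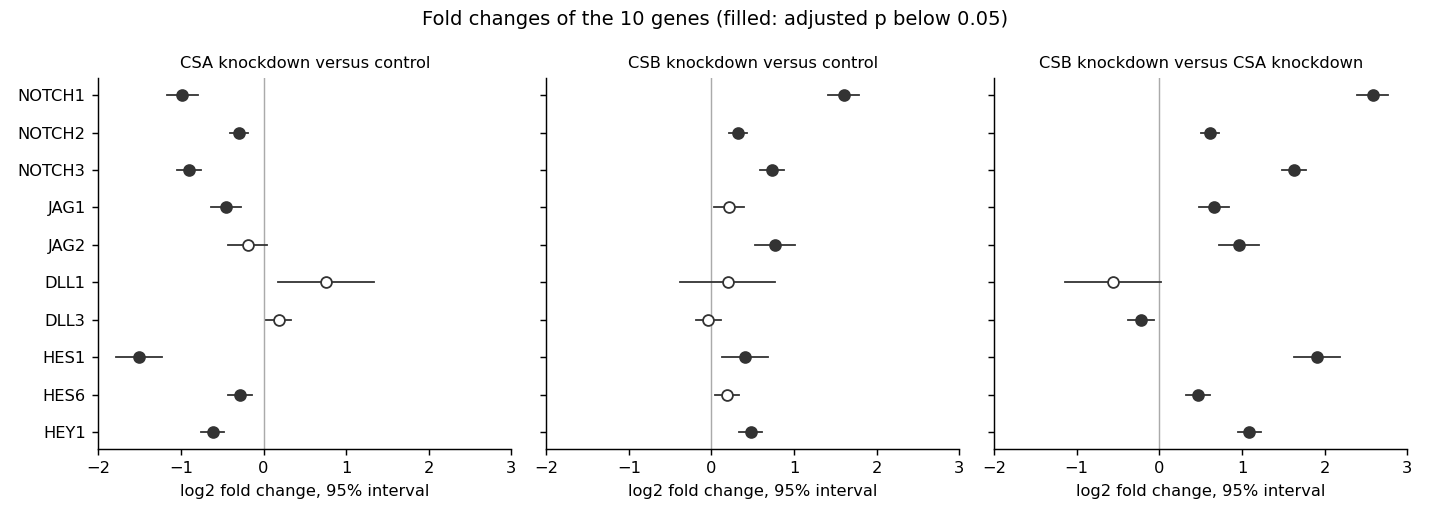
Log2 fold change (x axis) of each of the 10 genes with its 95% interval, for the CSA knockdown versus control, the CSB knockdown versus control and the CSB knockdown versus the CSA knockdown; filled points had an adjusted p below 0.05 in limma. NOTCH1, NOTCH2, NOTCH3, HES1 and HEY1 lie below 0 in the left panel and above 0 in the middle one, all filled.

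The knockdowns were also compared with each other. Of the 10 genes, 8 were higher and 1 was lower in the CSB knockdown than in the CSA knockdown, where 18.1% of all tested genes were higher and 11.3% lower. Of the genes whose scaled counts average 100 or more, 32.7% were higher and 21.9% lower. The median log2 difference of the 10 was 0.81, against 0.09 over all tested genes. With TMM scaling 4170 of all tested genes were higher and 4064 lower, against 5128 and 3212 as deposited. NOTCH1 was 5.99 times as high in the CSB knockdown as in the CSA knockdown, with a log2 difference of 2.58 ± 0.09 (SE; adjusted p = 8.3e-10). HES1 was 3.81 times as high (log2 difference 1.91 ± 0.13; adjusted p = 2.5e-07), and NOTCH3 was 3.10 times as high (log2 difference 1.63 ± 0.07; adjusted p = 4.1e-09). HEY1 was 2.13 times as high, with an adjusted p of 1.1e-07. JAG2, JAG1, NOTCH2 and HES6 were higher by log2 differences of 0.96, 0.66, 0.62 and 0.47. DLL3 was lower by a log2 difference of -0.22 ± 0.07 (adjusted p = 0.0391), and DLL1, at -0.56 (95% interval -1.14 to 0.02; adjusted p = 0.143), did not pass.

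The calls of NOTCH1, NOTCH2, NOTCH3, JAG1, JAG2, HES1 and HEY1 between the knockdowns stood under all 18 alternatives. That of HES6 was lost without CSB knockdown replicate 1 or 2 (adjusted p = 0.0634 and 0.0585, in a range of 8.44e-07 to 0.0634). That of DLL3 was lost without any 1 library, with adjusted p of 0.0755 and 0.223 without CSB knockdown replicates 1 and 2, 0.0717 and 0.213 without CSA knockdown replicates 1 and 2, and 0.118 and 0.117 without control replicates 1 and 2, in a range of 0.000566 to 0.223.

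Divided by gene length, the scaled counts can be set side by side between genes, as far as that length is right. The length was the one deposited for each gene, which can differ from that of the transcripts present. For JAG1 it was 8534 bases, against 9298 exon bases in GENCODE v29. In both control libraries the order of levels per kb was HES6, NOTCH3, DLL3, HEY1, NOTCH2, HES1, JAG1, NOTCH1, JAG2 and DLL1, with means of 589 for HES6, 364 for NOTCH3 and 6.97 for DLL1. HEY1 and NOTCH2 were neighbours in that order at 197 and 191 per kb. In both CSA knockdown libraries DLL3 (262 per kb on average) stood above NOTCH3 (195 per kb), JAG1 stood above HES1, and JAG2 stood above NOTCH1. In the CSB knockdown the first library had HES6, NOTCH3, HEY1, DLL3, NOTCH2, NOTCH1, HES1, JAG1, JAG2 and DLL1. The second had DLL3 and NOTCH2 in the opposite order, as well as NOTCH1 and HES1, so those neighbours could not be ranked.

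**Figure D3:**
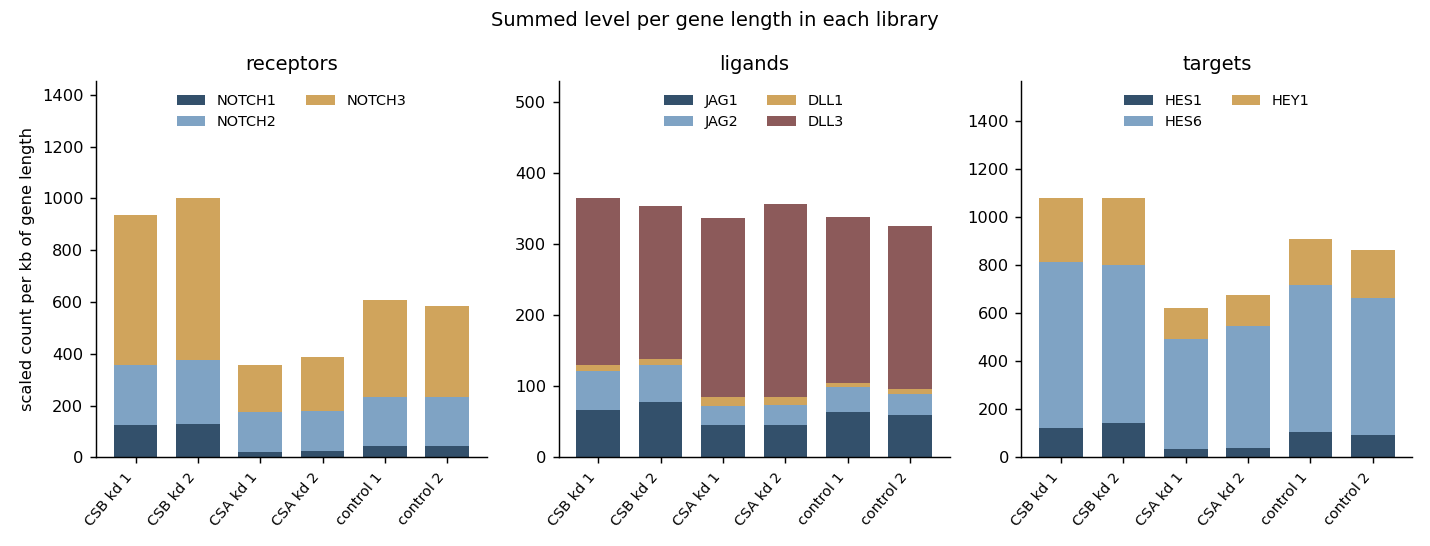
Stacked bars of the scaled count per kb of gene length (y axis, from 0) in each library, for the receptors, the ligands and the targets; CSB kd and CSA kd are the knockdowns, and the number is the replicate. The receptor and target sums are highest in the CSB knockdown and lowest in the CSA knockdown, while the ligand sums lie between 325 and 365 in all 6 libraries. Most of the target sum is HES6, which is not a typical Notch-induced gene.

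Summed per kb, the 3 receptors came to 937 and 1002 in the CSB knockdown and 358 and 386 in the CSA knockdown, against 609 and 584 in controls. The 4 ligands summed to 365 and 353 in the CSB knockdown and 336 and 356 in the CSA knockdown, against 337 and 325 in controls, with overlap between the knockdowns. DLL3 made up most of the ligand sum, with 64.6 and 60.9% in the CSB knockdown and 75.0 and 76.1% in the CSA knockdown, against 68.9 and 70.4% in controls. NOTCH1 took 13.2 and 13.0% of the receptor sum in the CSB knockdown and 5.42 and 5.95% in the CSA knockdown, against 6.89 and 7.14% in controls. The share of NOTCH3 was 62.0 and 62.5% in the CSB knockdown and 51.2 and 53.6% in the CSA knockdown, against 61.8 and 60.1% in controls. HES6, not a typical Notch-induced gene, made up most of the target sum. Its share was 63.7 and 60.8% in the CSB knockdown and 74.1 and 75.5% in the CSA knockdown, against 67.1 and 65.8% in controls. HES1 made up 11.4 and 13.4% of the target sum in the CSB knockdown and 5.33 and 5.46% in the CSA knockdown, against 11.7 and 10.9% in controls. These sums and shares were not tested.

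The other genes of the pathway were read from a list of 53, of which 52 were listed with reads and tested; HEY2 was not analysed here. In the CSA knockdown 10 of the 52 rose and 9 fell, with a median log2 fold change of 0.06. In the CSB knockdown 19 rose and 7 fell, with a median of 0.15. Between the knockdowns 18 were higher and 7 lower in the CSB knockdown. The list moved in both directions in each comparison, and the percentages of all tested genes are given above. Well-expressed genes are the closer background for most of the list. Of these, 16.8% rose and 20.7% fell in the CSA knockdown, near the shares of the list. In the CSB knockdown 28.8% of them rose and 18.4% fell. Between the knockdowns 32.7% of them were higher and 21.9% lower in the CSB knockdown.

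Between the knockdowns the called genes of the list with the widest differences were 2 non-canonical ligands. DLK1, a Delta-like protein without the domain by which ligands activate Notch, had scaled counts of 273 and 298 in the CSB knockdown and 1779.8 and 1711 in the CSA knockdown, against 908 and 909.6 in controls. It fell in the CSB knockdown with a log2 fold change of -1.67 ± 0.07 (SE; adjusted p = 1.8e-08) and rose in the CSA knockdown by 0.94 ± 0.07 (adjusted p = 1.1e-06), the direction opposite to that of the receptors. DNER, a neuronal membrane protein described as a Notch ligand, had 15.4 and 28.9 in the CSB knockdown and 113 and 95.4 in the CSA knockdown, against 42.8 and 46.3 in controls. It fell in the CSB knockdown with a log2 fold change of -1.04 ± 0.28 (adjusted p = 0.0158) and rose in the CSA knockdown by 1.20 ± 0.28 (adjusted p = 0.00858). Between the knockdowns the log2 difference was -2.61 ± 0.07 for DLK1 (adjusted p = 9.7e-11) and -2.24 ± 0.28 for DNER (adjusted p = 4.9e-05). The calls of DLK1, and that of DNER between the knockdowns, stood without any 1 library. DNER lost its fall in the CSB knockdown in 5 of these 6 fits, all but the one without CSB knockdown replicate 2 (adjusted p up to 0.234), and its log2 fold change there ran from -1.47 without CSB knockdown replicate 2 to -0.61 without CSB knockdown replicate 1. It also lost its rise in the CSA knockdown without either CSA knockdown or either control library (up to 0.221).

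LFNG, a Fringe glycosyltransferase that alters which ligands a receptor answers to, fell in both knockdowns. Its scaled counts were 604 and 555 in the CSB knockdown and 455 and 418 in the CSA knockdown, against 837 and 801 in controls. The log2 fold change was -0.50 ± 0.07 in the CSB knockdown (adjusted p = 3.8e-04) and -0.91 ± 0.07 in the CSA knockdown (adjusted p = 4.3e-06). MAML2, a Mastermind coactivator, had 193 and 206 in the CSB knockdown and 97.6 and 85.8 in the CSA knockdown, against 238 and 207 in controls. MAML2 fell in the CSA knockdown with a log2 fold change of -1.27 ± 0.12 (adjusted p = 1.5e-05) and was higher in the CSB knockdown than in the CSA knockdown by 1.11 ± 0.12 (adjusted p = 1.9e-05). Both MAML2 calls and the LFNG call in the CSA knockdown stood without any 1 library, but the LFNG call in the CSB knockdown was lost without CSB knockdown replicate 2, control replicate 1 or control replicate 2 (adjusted p up to 0.0721).

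Of the 7 corepressors of the pathway, 6 rose and 0 fell in the CSB knockdown, where 28.8% of well-expressed genes rose. In the CSA knockdown 1 rose and 2 fell, near the 16.8% and 20.7% of well-expressed genes; at an unadjusted p below 0.05, and in edgeR and DESeq2, 0 were lower in the CSB knockdown than in controls. TLE2, a Groucho-type partner of HES repressors, had 644 and 587 in the CSB knockdown and 369.6 and 444 in the CSA knockdown, against 343 and 339.5 in controls, a rise of 0.85 ± 0.09 on the log2 scale in the CSB knockdown (adjusted p = 3.7e-05). TLE1, of the same family, had 3703 and 3743 in the CSB knockdown and 1785 and 1662 in the CSA knockdown, against 2389 and 2586 in controls. TLE1 fell in the CSA knockdown with a log2 fold change of -0.53 ± 0.06 (adjusted p = 4.0e-05) and was higher in the CSB knockdown than in the CSA knockdown by 1.11 ± 0.06 (adjusted p = 3.1e-08). TLE3, named after its values were seen, fell with TLE1 in the CSA knockdown (-0.40 ± 0.06 on the log2 scale; adjusted p = 3.5e-04), where TLE4, named likewise, rose by 0.19 ± 0.06 (adjusted p = 0.0452). In the CSB knockdown TLE1 rose by 0.58 ± 0.06 (adjusted p = 1.6e-05) and TLE3 by 0.66 ± 0.06 (adjusted p = 6.5e-06). The TLE2 call was lost without either CSB knockdown library, and the TLE1 rise without CSB knockdown replicate 2. The TLE3 rise stood without any 1 library, but the TLE3 fall was lost without either CSB knockdown or either control library. The TLE4 call was lost without any 1 of the 6 libraries.

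MIB2, a ubiquitin ligase that primes ligands for endocytosis, rose in the CSB knockdown by 0.69 ± 0.05 on the log2 scale (adjusted p = 2.6e-06). It also rose in the CSA knockdown, by 0.17 ± 0.05 (adjusted p = 0.0425). MIB2 had 2734 and 2761 in the CSB knockdown and 1859 and 1972 in the CSA knockdown, against 1654 and 1741 in controls. DTX4, of the Deltex family of ubiquitin ligases, had 84.8 and 78.4 in the CSB knockdown against 38.8 and 42.4 in controls, a log2 fold change of 0.99 ± 0.21 (adjusted p = 0.00444). APH1B, a gamma-secretase subunit, rose in the CSA knockdown by 0.37 ± 0.10 on the log2 scale (adjusted p = 0.0219), with 487 and 401 in the CSA knockdown against 321 and 364 in controls. PSENEN, another subunit, was lower in the CSB knockdown than in the CSA knockdown by a log2 difference of -0.60 ± 0.16 (adjusted p = 0.0137), with 72.7 and 60.2 in the CSB knockdown against 95.4 and 107 in the CSA knockdown. The MIB2 call in the CSB knockdown stood without any 1 library, whereas that of DTX4 was lost without either CSB knockdown or either control library. The calls of MIB2 in the CSA knockdown, APH1B and PSENEN were lost without any 1 of the 6 libraries. Without 1 library the log2 fold change of APH1B ran from 0.23 to 0.51. Between the knockdowns DTX4 was higher in the CSB knockdown by a log2 difference of 1.34 ± 0.21 (adjusted p = 3.5e-04).

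A further 4 genes are named after their values were seen. NOTCH4, the fourth receptor, had 240.0 and 215 in the CSB knockdown and 241 and 261 in the CSA knockdown, against 197 and 229.6 in controls, and it passed the test in none of the 3 comparisons, with log2 fold changes of 0.10 in the CSB knockdown (95% interval -0.14 to 0.33; adjusted p = 0.6) and 0.24 in the CSA knockdown (95% interval 0.00 to 0.48; adjusted p = 0.172). RBPJ, the DNA-binding partner of the cut receptor, had 2094 and 2101 in the CSB knockdown and 1912 and 1822 in the CSA knockdown, against 2174 and 2169 in controls, and it fell in the CSA knockdown with a log2 fold change of -0.22 ± 0.05 (adjusted p = 0.00956; up to 0.121 without either CSB knockdown or either control library). NRARP, an inhibitor that Notch itself induces, had 339 and 342 in the CSB knockdown and 275 and 287 in the CSA knockdown, against 389 and 308 in controls, and passed in none of the 3 comparisons. Both CSA knockdown libraries lay below both controls, with a log2 fold change of -0.30 (95% interval -0.53 to -0.07; adjusted p = 0.0736). HES4 likewise passed in none, with 865 and 753 in the CSB knockdown and 729 and 755 in the CSA knockdown, against 824 and 719 in controls. Of the 6 other HES and HEY factors tested, HES4 included, 0 passed in any comparison in limma. HES2, HES3, HES5 and HEYL had at most 4, 4, 8 and 9 reads in any group, too few to tell whether they changed. At an unadjusted p below 0.05 in limma, 0 of the 6 passed in the CSA knockdown versus control. At that level 1, HES2, was higher in the CSB knockdown than in controls. Between the knockdowns 2, HES2 and HEYL, were higher and 1, HES7, was lower in the CSB knockdown. DESeq2 called 0 and edgeR 1, HES7, as lower in the CSB knockdown than in the CSA knockdown; HES7 had 29.7 and 25.6 in the CSB knockdown, against 43.4 and 47.7 in the CSA knockdown. HES2, HES3, HES5, HES7 and HEYL are named after their values were seen.

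**Figure D4:**
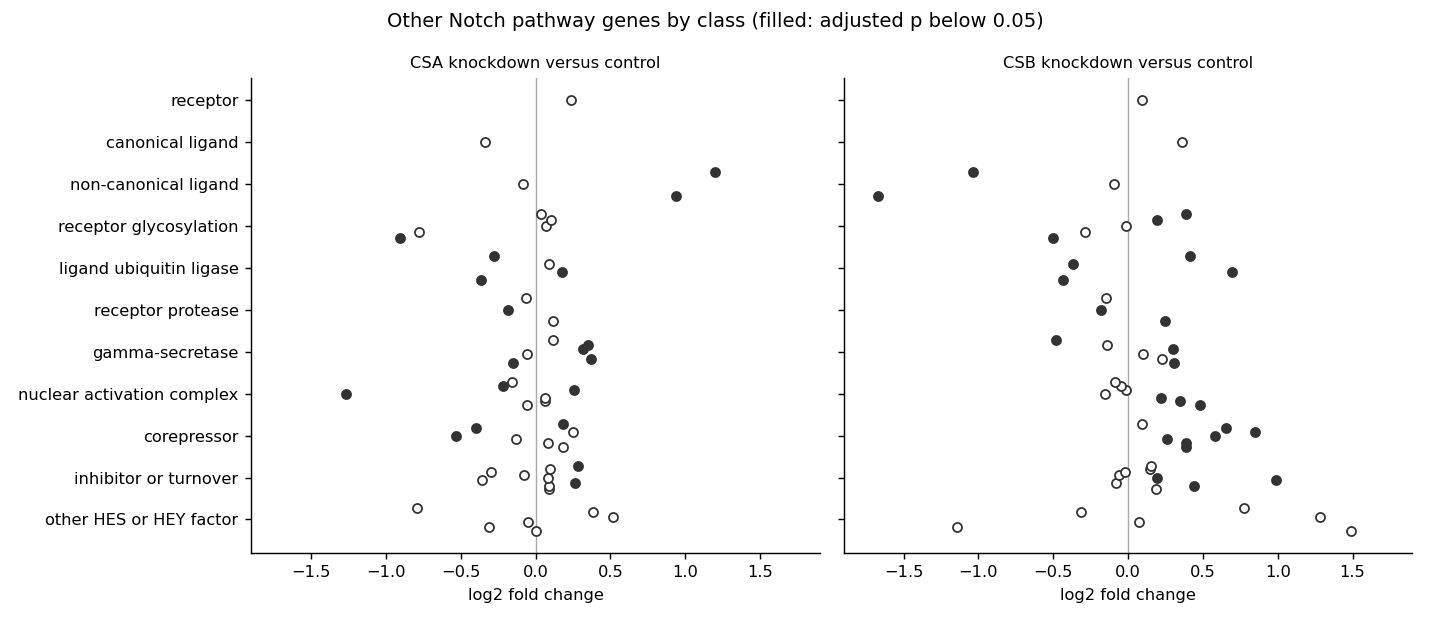
Log2 fold change (x axis) of the 52 other Notch pathway genes, each a point, by class, for the CSA knockdown versus control and the CSB knockdown versus control; filled points had an adjusted p below 0.05 in limma, and the height within a class has no meaning. Of the 3 non-canonical ligands, 2 lie far to the right in the CSA knockdown and far to the left in the CSB knockdown, and 6 of 7 corepressors are filled to the right in the CSB knockdown.

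The 2 genes of the set with the widest span of group means, NOTCH1 (2.58 on the log2 scale) and HES1 (1.91), were set against 13396 genes whose scaled counts average 50 or more, by the Euclidean distance between mean-centred log2(scaled count + 1) values over the 6 libraries. Nearest to NOTCH1 were DRAXIN, a secreted axon guidance protein, at a distance of 0.155, then BOC, a co-receptor for Hedgehog, at 0.190, and EFHD1, a calcium-binding mitochondrial protein, at 0.297. DRAXIN had scaled counts of 564 and 686 in the CSB knockdown and 93.2 and 113 in the CSA knockdown, against 202 and 205 in controls. Nearest to HES1 were COL4A1, a basement membrane collagen, at 0.280, LAPTM4A, a lysosomal membrane protein, at 0.287, and MRAS, a small GTPase, at 0.312. COL4A1 had 3260.0 and 3614 in the CSB knockdown and 895 and 949 in the CSA knockdown, against 2251 and 2397 in controls. The points behind each distance are the same 6 libraries, so the distances describe these libraries and carry no test.

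**Figure D5:**
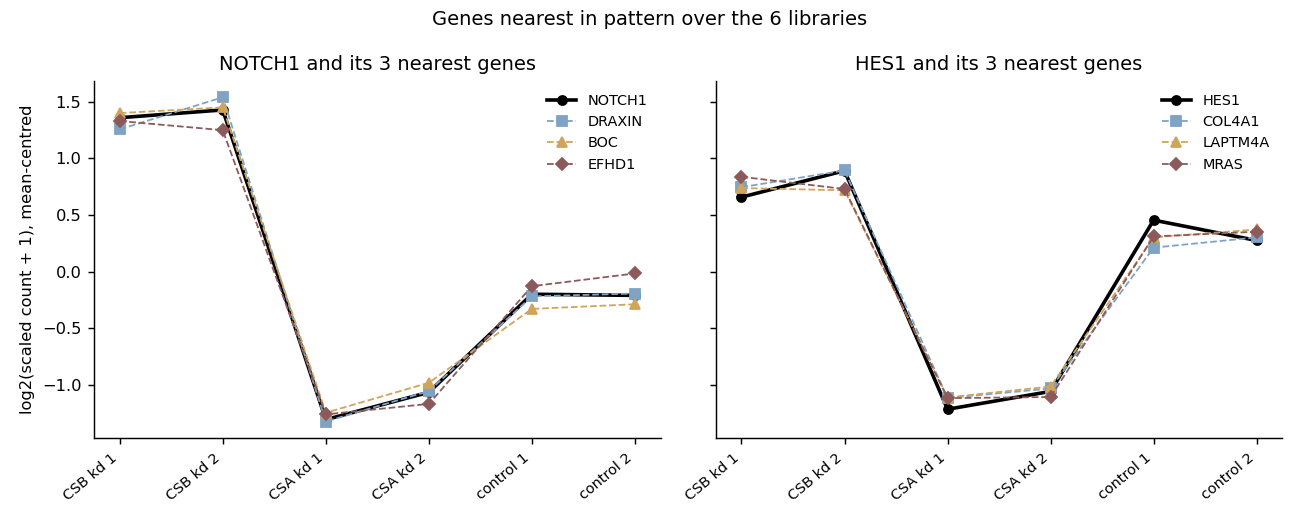
Mean-centred log2(scaled count + 1) (y axis) in each of the 6 libraries (x axis) for NOTCH1 and HES1 (black) and the 3 genes nearest to each (dashed); CSB kd and CSA kd are the knockdowns, and lines only join the points of 1 gene. In both panels the control libraries lie between the knockdowns, nearer to the CSB knockdown for HES1 than for NOTCH1.

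Levels of markers of other cell states are given beside these results, with the shares of well-expressed genes called as background (28.8% up and 18.4% down in the CSB knockdown, 16.8% up and 20.7% down in the CSA knockdown). Of the 8 markers of a mesenchymal-type neuroblastoma state, 6 rose and 1 fell in the CSB knockdown, and 0 rose (0 also at an unadjusted p below 0.05, in edgeR and in DESeq2) and 6 fell in the CSA knockdown. Their summed scaled count was 40668 and 41077 in the CSB knockdown and 12902 and 12993 in the CSA knockdown, against 24415 and 23527 in controls. PRRX1, one of them, had at most 9.91 in any library. The 10 noradrenergic markers summed to 101089 and 101502 in the CSB knockdown and 130563 and 134546 in the CSA knockdown, against 116726 and 113521 in controls, with 3 up and 3 down in the CSB knockdown and 3 up and 4 down in the CSA knockdown. The 5 fibroblast markers summed to 5436 and 5431 in the CSB knockdown and 2355 and 2283 in the CSA knockdown, against 3040 and 2912 in controls, 4 of them up in the CSB knockdown and 2 down in the CSA knockdown. Schwann cell markers summed to 113 to 151 in all libraries, endothelial markers to 0 to 7.71 and immune markers to 0 to 3.86, all of it from PTPRC, at 0 in all 4 knockdown libraries and 1.99 and 3.86 in controls. The part of these markers' shifts in the changes of the 10 genes was not tested.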

How the data were processed

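Messenger RNA libraries were made with the Illumina TruSeq kit from 1 µg of total RNA and sequenced paired-end, per the labels' protocols and series design. Reads were handled with FastQC and HISAT2 2.0.4 on hg38, per the submitters' processing notes. Strandedness, the read counter and the annotation, not given in the sources used here, leave overlapping genes uncertain. Per the file headers the deposited values are FPKM, but in each library 100% of them were whole multiples of its smallest value (within 0.01 of a step). They were treated as a deposited signal, read counts divided by 1 size factor per library, called the scaled count. Genes without an entry in a library were taken as 0.

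The 28388 genes whose scaled count averaged 1 or more in any group were tested. The model was limma 3.58.1 (R 4.3.3) with a trended prior variance on log2(scaled count + 1), all 3 groups together with 3 residual degrees of freedom, the test set for normalized units. The groups thus share 1 spread, which may be too small for the CSA knockdown. Between replicates the chi-square of reads per degree of freedom was 5.06 there, 2.66 in the CSB knockdown and 1.95 in controls. A fold change on this scale understates the change of genes with low values. Alternatives were pseudocounts of 0.5 and 5, no filter or a mean of at least 10, 3 other scalings, fits of the 2 groups compared alone, a replicate block, leaving out each library, and edgeR 4.0.16 and DESeq2 1.42.0 on the recovered reads. The script was tested on simulated data.

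The 10 genes, the pathway and marker lists and the tests were chosen with earlier results of these data known. By rule, the named genes are the 10, ERCC6 and ERCC8, the 3 called pathway genes with the largest fold change in each direction per comparison, and the 3 genes nearest in pattern to the 2 members of widest span. Other genes are named as markers, as overlapping or near-identical genes, or where the text says that they were chosen after their values were seen. Positions are those deposited (hg38). Promoter windows are from RefSeq (GRCh38.p14), matched by symbol. One marker of the immune cell list is not reported here.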

Additional observations from a re-analysis of the deposited data

How the results depend on the processing

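Over 18 alternative settings and 10 genes in 3 comparisons, 496 of 540 results kept their direction and their side of the threshold, 38 lost the call, 5 gained it and 1 reversed. The reversal was DLL3 in the CSB knockdown versus control, never called, which ran from -0.10 on the log2 scale without CSB knockdown replicate 1 to 0.03 without CSB knockdown replicate 2. The calls gained were DLL1 in the CSA knockdown versus control with a mean of at least 10 (adjusted p = 0.035), edgeR with TMM scaling (0.034) and edgeR with DESeq2 size factors (0.0378), and HES6 in the CSB knockdown versus control with a mean of at least 10 (0.025) and with the 2 groups alone (0.013). DLL3 between the knockdowns also lost its call with no filter (0.0509) and with the 2 groups alone (0.0705). Leaving out 1 library gave 4 to 6 of the 10 genes called in the CSA knockdown versus control, 3 to 5 in the CSB knockdown versus control and 7 to 8 between the knockdowns. The pathway list had 4 to 11, 8 to 24 and 14 to 21 calls in these comparisons, and all genes 1126 to 3306, 1773 to 5961 and 4384 to 6223. A fit without 1 library assumes that the lone sample varies like the other groups. Same-numbered replicates did not deviate together (r = -0.040, -0.032 and -0.032 over 13397 genes), so the numbers were not taken to pair the libraries; with the replicate block, 7, 6 and 9 of the 10 genes were called, and 5259, 6575 and 8258 of all genes. Depth limits DLL1 most, with 46 to 76 reads per group.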
